A study of Caenorhabditis elegans with 60 samples.

Results

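Of 200551 nuclear windows in the table, 184123 had even inputs, and 497 of these, all of 500 bp, are described here. They carried H3K9me3 in wild-type and nrde-3 embryos. The mark was kept in embryos of the double mutant met-2 nrde-3 and stood lower in those of the double mutant lin-61 met-2. The windows were chosen by their levels. A level is the log2 ratio of a window's H3K9me3 count over the mean of 14 input libraries, each library scaled to its median nuclear window after a pseudocount of 8 counts, so that 0 is the input and 1 is 2 times the input. A member had a level of at least 2 in N2, at least 1 in nrde-3 as well as in met-2 nrde-3, but below 1 in lin-61 met-2, and its inputs had to lie within 1.5 times of each other across the 5 genotypes. Without this limit on inputs 6856 windows met the levels, and the 497 are 7.25% of them. Of 184123 windows with such even inputs, 15033 reached 2 in N2 and 14552 of those reached 1 in nrde-3. The 497 members are 3.42% of these 14552 marked windows. A further 2084 reached 1 in both double mutants, 1204 reached 1 in lin-61 met-2 but not in met-2 nrde-3, and 10767 were below 1 in both. Since the levels of N2, nrde-3 and both double mutants chose the members, they are given here as a description with no test. The H3K9me3 libraries of the single mutant lin-61 were not used in the choice, though its 3 inputs are among the 14.

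H3K9me3, the trimethylated form of lysine 9 of histone H3, marks silent chromatin, and in C. elegans it lies mainly on repeats and silent genes of the chromosome arms. MET-2, related to mammalian SETDB1, is the enzyme for most of the mono- and dimethylated forms, and SET-25 is the embryonic enzyme known to add the third methyl group at heterochromatin. The Argonaute NRDE-3 brings small interfering RNAs into somatic nuclei, where they direct silencing of matching transcripts. LIN-61 is a chromatin protein with MBT repeats, a fold that binds methylated lysines.

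The libraries came from early embryos harvested before the bean stage. The 5 genotypes were the wild type N2 (Bristol), nrde-3(tm1116), lin-61(tm2649), met-2(n4256) combined with nrde-3(tm1116), and met-2(n4256) combined with lin-61(tm2649). Each had 3 input and 3 H3K9me3 libraries, numbered 1 to 3 by preparation in the titles, 30 libraries in all. No met-2 single mutant was among the groups, so a level in a double mutant has no counterpart with met-2 alone. The series asks, by its title, whether the H3K9me3 enzyme is recruited through NRDE-3 in one route and through LIN-61 in another. The protocol text names an antibody against LEM-2 where the titles name H3K9me3, and the titles were followed.

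The library number in the titles is 2236 for the wild type and both genotypes with the nrde-3 mutation, and 2080 for both with the lin-61 mutation. Setting the 2 double mutants against each other therefore crosses these library series, as does setting lin-61 against N2, nrde-3 or met-2 nrde-3. In all these comparisons, named loci included, genotype and series cannot be told apart. The series differed in contrast. The window at the 99th percentile held 5.66 to 22.9 times the median window in the H3K9me3 libraries of 2236 and 2.53 to 3.55 times in those of 2080, with 45137188 to 65845682 counts per library in the first and 22265768 to 43856170 in the second, N2 replicate 1 aside. In N2 replicate 1 the input held the enrichment and the H3K9me3 library did not, so both were left out. A gap on III, the chromosome of met-2, was present in the H3K9me3 libraries of met-2 nrde-3 at a relative depth of 0.0829 to 0.0966 but not in their inputs at 1.00 to 1.04, while the inputs labelled nrde-3 had it at 0.0604 to 0.0648. A gap on V was crossed in the same way, so the input labels of these 2 genotypes contradict the labels of their H3K9me3 libraries. Both kinds of lin-61 met-2 library had the gap on III and those of lin-61 did not. The level of a member divides by the mean over all 14 inputs and does not depend on which of these inputs is which. With each genotype set against its own inputs as labelled, 512 windows met the rule, of which 414 were members.

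In the wild type the members were strongly marked. Their median level was 2.97 and 3.15 in N2 preparations 2 and 3. In nrde-3 it was 1.86, 2.76 and 1.37 in preparations 1 to 3, and in met-2 nrde-3 it was 1.34, 1.13 and 1.56. All 3 preparations of met-2 nrde-3 thus stood below N2 and overlapped the lowest preparation of nrde-3. In lin-61 met-2 the medians were 0.82, 0.66 and 0.82, below every preparation of met-2 nrde-3. The mean of these medians was 3.06 ± 0.13 (SD, n = 2) for N2 and 1.99 ± 0.70 for nrde-3. For the double mutants it was 1.34 ± 0.22 with nrde-3 and 0.77 ± 0.09 with lin-61 (n = 3 for each mutant). Over all 184123 even windows the same means lay between -0.01 and 0.06. In raw counts, the median member held 389 to 1050 counts in an H3K9me3 library of series 2236 and 164 to 327 in one of series 2080, against 192 to 266 in the inputs.

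**Figure D1:**
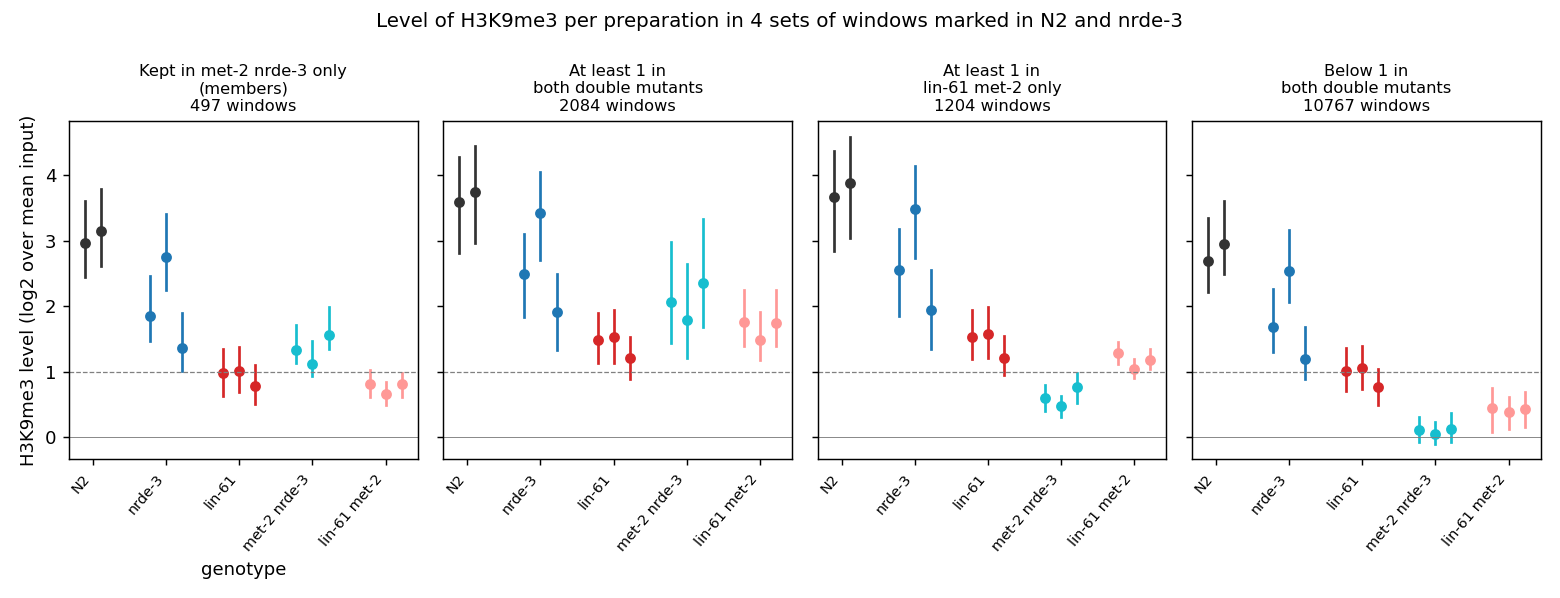
Median H3K9me3 level (points) and interquartile range (bars) over the windows of each set, 1 point per preparation, on a log2 scale over the mean input. The members, in the left panel, stand at 2.97 and 3.15 in N2 and at 0.66 to 0.82 in lin-61 met-2, and their lin-61 medians of 0.79 to 1.01 lie close to those of windows below 1 in both double mutants, at 0.77 to 1.06.

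In met-2 nrde-3 the mark was kept at a lower level. The level of a member in met-2 nrde-3 was below that in nrde-3 in 404 of 497 windows, with a median difference of -0.57, and below that in N2 in all but 7, with a median of -1.60. The nrde-3 single mutant was itself below N2 in all 497 members, with a median difference of -1.03, which is a description since the rule used both. The same held in every window kept in both double mutants, kept in lin-61 met-2 alone or below 1 in both. The medians there were -1.05, -1.09 and -1.04, so this was not particular to the members. Single members ranged from 2.01 to 5.13 in N2, from 1.00 to 3.24 in met-2 nrde-3, with 71 at 2 or more, and from -0.28 to 1.00 in lin-61 met-2. In lin-61 met-2 most members still stood above the input. Of the 497 members, 70 were below 0.5 there and 5 below 0, and 282 lay within 0.25 of the threshold of 1. By rank within each library, the median member stood at the 95.4th to 95.7th percentile of even windows in the 3 preparations of met-2 nrde-3, at the 88.2nd to 91.7th in lin-61 met-2, and at the 91.7th to 93.1st in lin-61.

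Many members sat near a threshold. In met-2 nrde-3, 203 were within 0.25 above 1, and 381 of the 497 were within 0.25 of at least 1 of the thresholds for the double mutants. The 282 members just inside the threshold for lin-61 met-2 had medians of 3.14 in N2, 1.37 in met-2 nrde-3 and, by the rule, 0.89 in lin-61 met-2, and the 397 windows just outside had 3.30, 1.43 and 1.13. For the threshold of met-2 nrde-3 the 203 windows just inside had 3.07, 1.11 and 0.76, and the 377 just outside had 3.06, 0.85 and 0.77. Windows on either side of a threshold had close medians in N2. The 397 windows were held at 1 or more in met-2 nrde-3 and the 377 below 1 in lin-61 met-2, as the members were. The choice thus favours close medians in the other double mutant, and no conclusion is drawn from them. The difference of the double mutants, met-2 nrde-3 minus lin-61 met-2, had a median of 0.65, an interquartile range of 0.39 to 1.01 and a largest value of 2.66. It was at least 1 in 129 members and under 0.5 in 174. In 339 members (68.2%) every met-2 nrde-3 preparation stood above every lin-61 met-2 preparation. In 156 members all 3 preparations of met-2 nrde-3 were at least 1 and all 3 of lin-61 met-2 below 1. The rule favours the counts of 339 and 156, since it chose the windows by the levels of these libraries.

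The choice also depended on the scale. Levels of each genotype were divided by their SD over even windows and brought to the mean SD of the 5 genotypes. This evens out the spread of each genotype, so it can remove differences in the mark between genotypes along with the contrast of the series. Before this step the SD was 1.01 for N2, 0.66 for nrde-3, 0.52 for lin-61, 0.56 for met-2 nrde-3 but 0.50 for lin-61 met-2. After it 144 windows met the rule and 102 of them were members, 20.5% of the 497. Of the 497 members, 230 (46.3%) were still below 1 in lin-61 met-2 on that scale, and 259 were then under 2 in N2. Scaled by library total in place of the median window, 115 windows met the rule and 76 were members.

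The lin-61 single mutant gave the 1 set of H3K9me3 libraries that the rule did not use. In it the members still carried the mark, at about the level of the windows below 1 in both double mutants. The median level of the members was 0.99, 1.01 and 0.79 in lin-61 preparations 1 to 3, a mean of 0.93 ± 0.12 (SD, n = 3). These values lie below every preparation of N2, of nrde-3 and of the double mutant met-2 nrde-3, and overlap those of lin-61 met-2. The same mean was 0.95 ± 0.16 in the windows below 1 in both double mutants, 1.41 ± 0.17 in those kept in both and 1.45 ± 0.20 in those kept in lin-61 met-2 alone, and 0.06 ± 0.01 over all even windows. The difference between these sets was not tested, and the sets also differed in N2, at 3.06, 2.83, 3.68 and 3.77 in the order members, below 1 in both, kept in both, kept in lin-61 met-2 alone.

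Each window was tested for H3K9me3 over the lin-61 input with edgeR's quasi-likelihood test, fitted on 28 libraries and adjusted by Benjamini-Hochberg over 184123 windows. Of the 497 members, 389 (78.3%) were higher than input at an adjusted p under 0.05, 0 were lower and 108 did not pass. Over all even windows 22.4% were called higher and 21.3% lower. At an unadjusted p under 0.05, 412 members were higher and 0 were lower, and DESeq2 and limma also called 0 lower. The share called was 81.2% of the windows below 1 in both double mutants, 95.5% of those kept in both and 98.2% of those kept in lin-61 met-2 alone. The members called higher had a median log2 ratio of 1.07, from 0.50 to 2.40, and 218 of them were at least 1. The median SE over all members was 0.24. Those not called had a median of 0.35, from -0.11 to 0.65. With all 30 libraries as labelled, which adds both libraries of N2 replicate 1 to the estimate of spread, 32 members were called, against 10.5% of all windows. Without lin-61 preparation 1, 2 or 3 the count was 292, 299 and 333. The 108 members not called had a weaker mark in N2, with a median of 2.49 against 3.16 in the 389 called, but not in met-2 nrde-3, with 1.45 against 1.31. The rule held met-2 nrde-3 at 1 or more in all of them.

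Among the 156 members that met the thresholds for both double mutants in every preparation, 99 (63.5%) were called higher in lin-61. That share was 78.3% for all members, 81.2% for windows below 1 in both double mutants and 22.4% for all even windows. The medians of the 156 were 1.57 in met-2 nrde-3, 0.63 in lin-61 met-2 and 0.78 in lin-61.

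The lin-61 level divided the members while the met-2 nrde-3 level did not follow it. The 221 members at 1 or more in lin-61 had a median of 3.59 in N2, 1.32 in met-2 nrde-3 but 0.86 in lin-61 met-2. The 276 members below 1 in lin-61 had 2.73, 1.34 and 0.74. Members with a weaker wild-type mark were lower in lin-61 but not in met-2 nrde-3. Across the 497 members the lin-61 level correlated with N2 at r = 0.58 (Spearman's rho 0.56), with nrde-3 at r = 0.60 (rho 0.56) and with met-2 nrde-3 at r = -0.03 (rho -0.06). N2 and nrde-3 correlated at r = 0.98 (rho 0.97), and N2 and met-2 nrde-3 at r = 0.08 (rho 0.07). The windows kept in both double mutants had the same pattern, with N2 correlating at r = 0.70 with lin-61 and at r = 0.0032 with met-2 nrde-3 (n = 2084), so it was not particular to the members. In the windows below 1 in both double mutants, N2 correlated at r = 0.51 with lin-61 and at r = 0.20 with met-2 nrde-3 (n = 10767). These correlations are across windows of the same libraries, which share 1 input reference and lie in runs, so they describe the members and carry no p. The thresholds of the rule cut the range of each level but that of lin-61. A member had to reach 1 in met-2 nrde-3 whatever its N2 level, so a missing trend between them cannot be told apart from the choice.

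**Figure D2:**
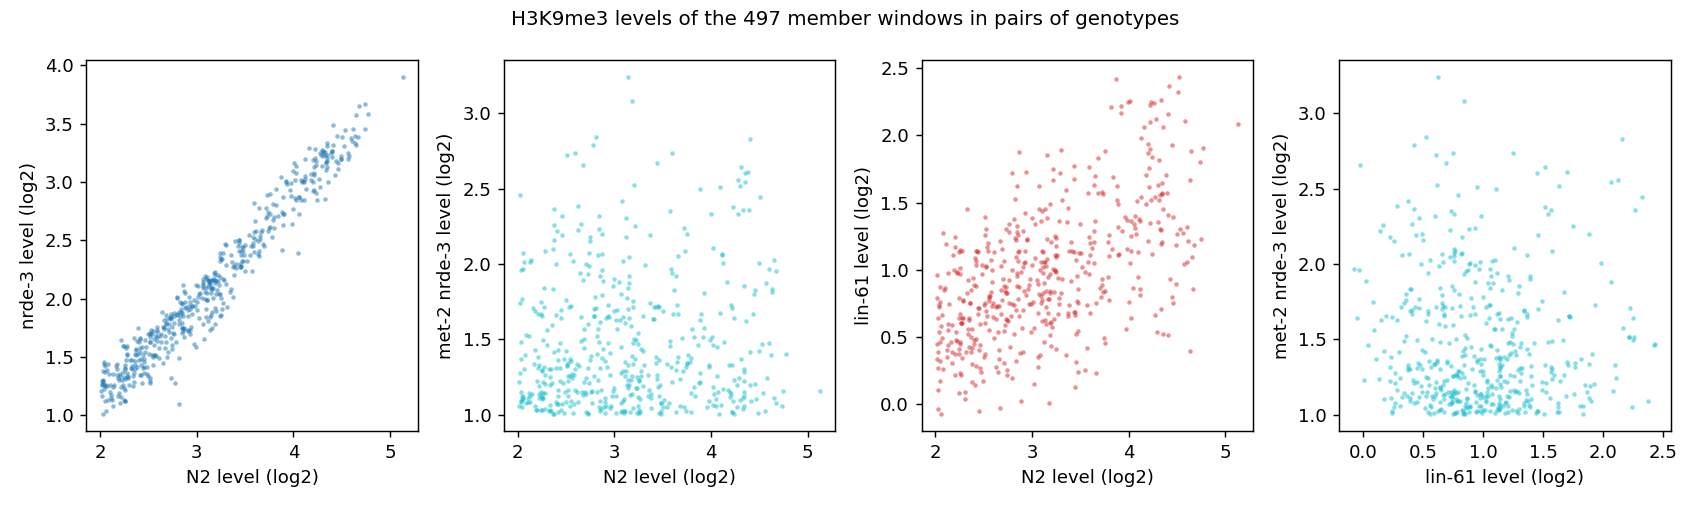
H3K9me3 levels of the 497 member windows, 1 point per window, on log2 axes. N2 and nrde-3 follow one line (r = 0.98), lin-61 rises with N2 more loosely (r = 0.58), and met-2 nrde-3 shows no trend with N2 (r = 0.08) or lin-61 (r = -0.03).

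In 107 members the lin-61 single mutant was at or above met-2 nrde-3, and in 390 it was below. Every lin-61 preparation lay below every met-2 nrde-3 preparation in 261 members and above in 32. These counts cross the library series. The rule also held met-2 nrde-3 at 1 or more and left lin-61 free, which favours a lower lin-61 level. Against its own single mutant, lin-61 met-2 was lower in 335 members and at or above in 162, with a median difference of -0.19. The same difference was -0.27 in the windows kept in lin-61 met-2 alone, -0.55 in those below 1 in both double mutants and 0.29 in those kept in both. Since the rule placed lin-61 met-2 below 1 in the members, no test was made of it.

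The members formed short stretches. Joined across at most 1 other window they made 278 loci, of which 175 were single windows, 54 held 2 windows and 49 held at least 3. The 49 larger loci held 214 members, and the longest was 5500 bp. In 43 of the 49 every met-2 nrde-3 preparation lay above every preparation of lin-61 met-2, and 18 of the 49 were at 1 or more in lin-61. The rule favours the count of 43, since it chose the windows by the levels of both double mutants. A locus held 1.79 windows on average, against 1.91 for windows kept in lin-61 met-2 alone, 4.22 for those kept in both double mutants and 4.93 for those below 1 in both. Single windows made up 62.9% of the member loci and 56.7% of the loci kept in lin-61 met-2 alone, so short stretches were common to both. The run of consecutive windows at 2 or more in N2 that held a locus had a median of 17 windows, so a locus was mostly a small piece of a wild-type domain.

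The windows next to the loci showed what the members border on. Of 556 flanking windows, 208 (37.4%) were kept in both double mutants, 146 (26.3%) were below 1 in both, 97 were even windows under the N2 or nrde-3 threshold, 88 had uneven inputs and 17 were kept in lin-61 met-2 alone. A neighbour kept in both double mutants stood on both sides of 35 of the 278 loci, on 1 side of 138 and on neither side of 105. At 67 loci 1 side was kept in both double mutants and the other was below 1 in both, so that the member stood at the edge between them. At 22 loci both neighbours were below 1 in both double mutants.

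**Figure D3:**
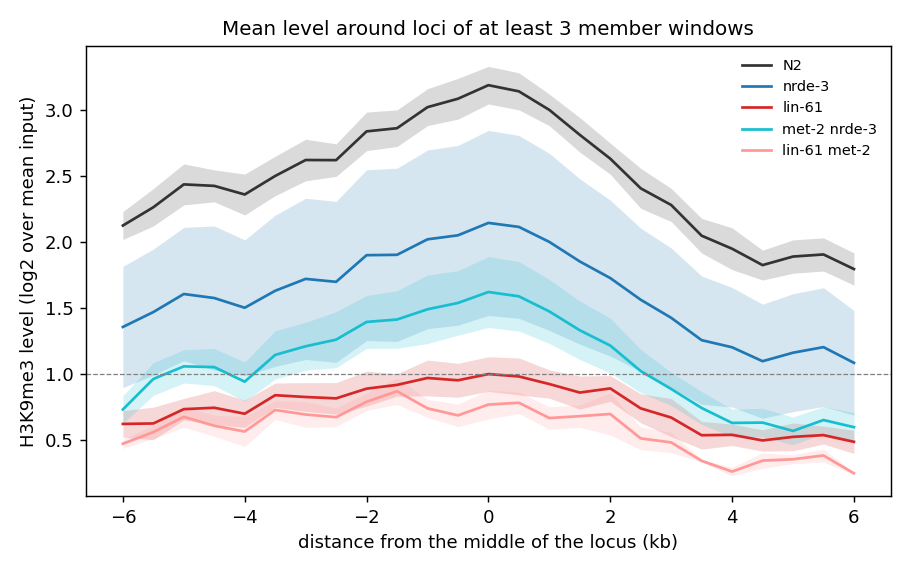
Mean H3K9me3 level (log2 over input) by distance in kb from the middle of the 49 loci with at least 3 members, even windows only. Lines are means over preparations and bands 1 SD (n = 2 for N2, 3 for the others). At the middle N2 stands at 3.18, nrde-3 at 2.14, met-2 nrde-3 at 1.62, lin-61 at 1.00 and lin-61 met-2 at 0.77.

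Around the 49 larger loci the mean level was lower at 6 kb on either side than at the middle in each of the 5 genotypes. At 6 kb to the right the mean level was 1.79 ± 0.12 (SD, n = 2) for N2, 1.09 ± 0.40 for nrde-3, 0.49 ± 0.09 for lin-61, 0.60 ± 0.11 for the double mutant with nrde-3 and 0.25 ± 0.01 for the one with lin-61 (n = 3 for each mutant, 45 loci). At the middle of the loci the double mutants stood at 1.62 ± 0.27 with nrde-3 and 0.77 ± 0.11 with lin-61 (49 loci). The gap between the double mutants was thus wider at the middle, which the rule chose, than at 6 kb.

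Among loci of at least 3 members, the one with the highest level in met-2 nrde-3 was V 16782404 to 16786903 in ce10, with 8 member windows. Summed over them, the H3K9me3 libraries held 7381, 8523 and 9821 counts in met-2 nrde-3 against 1196, 1888 and 2275 in lin-61 met-2, and the 14 inputs 1551 to 2052, before any scaling for depth. The H3K9me3 counts were 6718 and 7070 in N2, 4279, 5481 and 3900 in nrde-3, and 1635, 1255 and 1344 in lin-61. As levels these were 2.70 and 2.94 in N2 and 1.68, 2.54 and 1.27 in nrde-3. The double mutant met-2 nrde-3 had 2.57, 2.34 and 2.89, lin-61 had 0.48, 0.42 and 0.46, and lin-61 met-2 had 0.68, 0.46 and 0.64. Here met-2 nrde-3 overlapped N2 and stood above 2 of the 3 nrde-3 preparations, while both genotypes with the lin-61 mutation were low. In lin-61, 2 of the 8 windows were above input in the edgeR test, with a mean log2 ratio of 0.33 and a median adjusted p of 0.229.

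This locus was 1 of 10 in a stretch of V from 16751404 to 16952903, which held 32 members and was picked out after the members' positions were seen. It held 245 marked windows, of which 67 were kept in both double mutants, 35 in lin-61 met-2 alone and 111 in neither. The members' median level was 3.02 and 3.27 in N2 and 1.97, 1.67 and 2.15 in met-2 nrde-3. It lay between 0.59 and 0.84 in every preparation of both genotypes with the lin-61 mutation. Of the 32, 17 were called above input in lin-61. A further pair of named loci lies in this stretch. V 16754404 to 16756903, with 5 windows, stood at 1.67, 1.49 and 1.93 in met-2 nrde-3, at 0.69, 0.71 and 0.52 in lin-61, and lin-61 met-2 at 0.82, 0.53 and 0.81. V 16927404 to 16930403, with 6 windows, stood at 1.69, 1.32 and 1.90 in met-2 nrde-3, at 1.00, 1.02 and 0.78 in lin-61, while lin-61 met-2 had 0.71, 0.64 and 0.71. In neither did the double mutants overlap, and 3 of 5 and 6 of 6 windows passed the test in lin-61.

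The locus with the most members, V 20672388 to 20677887 with 10 windows, lay nearer the right end of V. Its level was 4.02 and 4.22 in N2 and 3.00, 3.95 and 2.39 in nrde-3. The double mutant met-2 nrde-3 had 2.21, 1.93 and 2.56, lin-61 had 1.46, 1.45 and 1.30, and lin-61 met-2 had 0.86, 0.67 and 0.77. The genotypes followed that order, with met-2 nrde-3 overlapping the lowest nrde-3 preparation. All 10 windows were above input in lin-61 (mean log2 ratio 1.36, median SE 0.27, median adjusted p 5.27e-05, edgeR). A further locus on the same arm, V 17643401 to 17646400, stood at 4.42 and 4.65 in N2 and at 1.82, 1.66 and 2.11 in met-2 nrde-3. There lin-61 had 0.85, 0.97 and 0.44 and lin-61 met-2 0.54, 0.26 and 0.32, which overlap, and 3 of its 6 windows passed in lin-61.

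At 3 named loci the lin-61 single mutant had a higher mean level than met-2 nrde-3. At X 1548231 to 1553230, with 9 windows, N2 had 3.86 and 3.97 and met-2 nrde-3 had 1.51, 1.18 and 1.75. There lin-61 had 2.17, 2.23 and 1.79, above every preparation of met-2 nrde-3, but lin-61 met-2 had 0.92, 0.68 and 0.63. All 9 windows passed in lin-61 (mean log2 ratio 2.02, median adjusted p 1.65e-07, edgeR), and no lin-61 preparation overlapped one of lin-61 met-2. III 2672592 to 2676091, the locus of at least 3 members with the highest lin-61 level, had 2.23, 2.40 and 1.81 in lin-61, 2.16, 1.77 and 2.43 in met-2 nrde-3, against 0.87, 0.70 and 0.87 in lin-61 met-2, with N2 at 4.18 and 4.35. Its 6 windows all passed (mean log2 ratio 2.07, median adjusted p 3.90e-07). I 11766451 to 11769950, with 7 windows, had 1.81, 1.72 and 1.47 in lin-61, 1.23, 0.96 and 1.48 in met-2 nrde-3, against 0.66, 0.59 and 0.52 in lin-61 met-2. The lin-61 and met-2 nrde-3 preparations overlapped at the loci on III and I. At all 3 loci the lin-61 single mutant and lin-61 met-2 did not overlap. The rule kept lin-61 met-2 below 1 and these loci were grouped for a high lin-61 level, so the choice favours this separation.

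The lowest lin-61 level at a locus of at least 3 members was at I 14728438 to 14730937, with 5 windows, at 0.37, 0.38 and 0.22. There met-2 nrde-3 stood at 1.21, 1.01 and 1.45, lin-61 met-2 at 0.78, 0.47 and 0.65, and N2 at 2.06 and 2.26, a weak wild-type domain for a member. None of the 5 windows was called in lin-61 (mean log2 ratio 0.27, median adjusted p 0.370, edgeR). At the other named loci met-2 nrde-3 stood above lin-61 by the mean. The lin-61 level was 1.18 at I 12864446 to 12868945 and 1.04 at I 14050441 to 14053440, where met-2 nrde-3 had 1.35 and 1.22. It was 1.16 at II 1148509 to 1151508, 0.78 at III 3451589 to 3454088 and 1.04 at IV 3253830 to 3256829, where met-2 nrde-3 had 1.66, 1.59 and 1.22. The preparations of lin-61 and met-2 nrde-3 overlapped at I 12864446, I 14050441 and IV 3253830, but not at II 1148509 or III 3451589. All windows of the loci on II and IV and of I 12864446 passed in lin-61, as did 5 of 6 at I 14050441 and 3 of 5 at III 3451589.

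**Figure D4:**
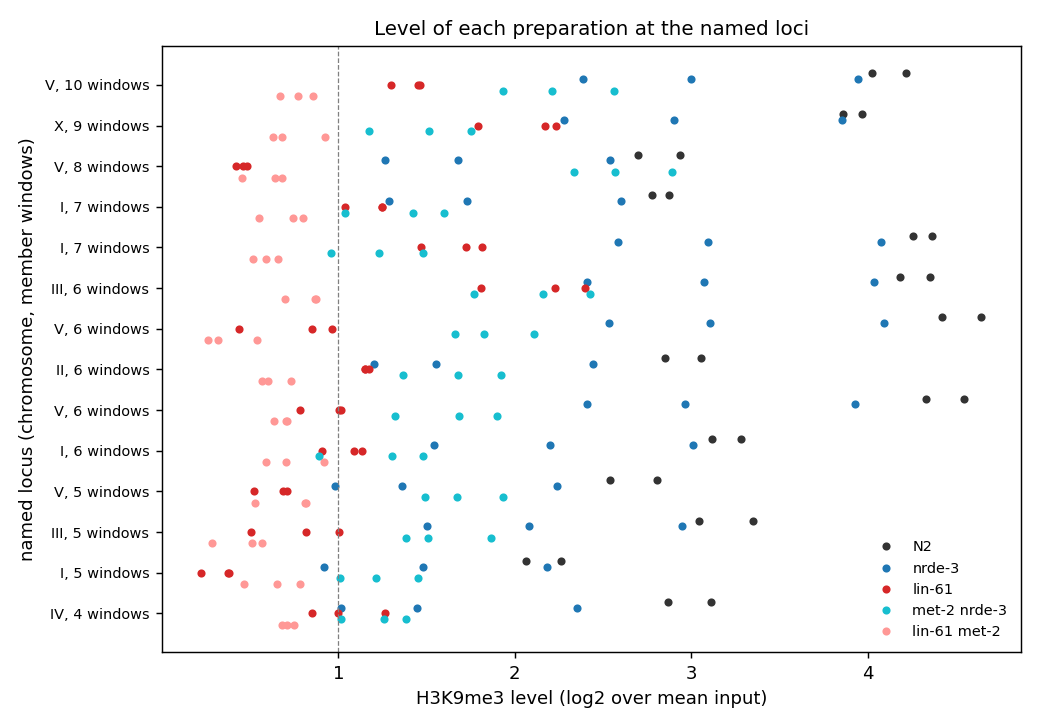
H3K9me3 level (log2 over mean input) of each preparation at the 14 named loci, 1 row per locus with its chromosome and number of member windows, ordered by that number. The dashed line is the threshold of 1. All lin-61 met-2 points lie below it, from 0.26 to 0.92, while lin-61 points range from 0.22 to 2.40.

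The single windows with the widest gap between the double mutants were in part the same loci. Of the 6 members with a difference of at least 2, 3 lay in the locus at V 16782404. The widest, V 16785404 to 16785903, had 3.30, 2.82 and 3.60 in met-2 nrde-3, against 0.91, 0.39 and 0.45 in lin-61 met-2, with N2 at 3.05 and 3.22. V 1201471 to 1201970 had 2.35, 1.97 and 2.74 in met-2 nrde-3, against -0.05, 0.38 and 0.07 in lin-61 met-2. There the mark in lin-61 met-2 was near the input, while lin-61 stood at 0.77, 0.84 and 0.59. Of the 7 members at or above N2 in met-2 nrde-3, 3 were on I, 2 on V, 1 on III and 1 on IV, and the largest excess over N2 was 0.44.

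On the chromosomes the members followed the arms, like the wild-type mark. With each chromosome divided into 3 equal parts, 458 of the 497 (92.2%) lay in the outer parts of the autosomes, 6 in the middle parts and 33 on X. The outer parts held 94.3% of the 14552 marked windows and 53.5% of all even windows. Chromosome I held 155 members, 31.2% of them, but 18.5% of the marked windows, and V held 114 members, 22.9%, but 36.6% of the marked windows. Members made up 5.77% of the marked windows on I, 4.44% on X, 3.88% on IV, 3.68% on II, 2.67% on III and 2.14% on V. On I, 115 members lay in the right part and 40 in the left, which were 5.41% and 7.23% of the marked windows there. Windows share their libraries and lie in runs, so these shares carry no test.

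**Figure D5:**
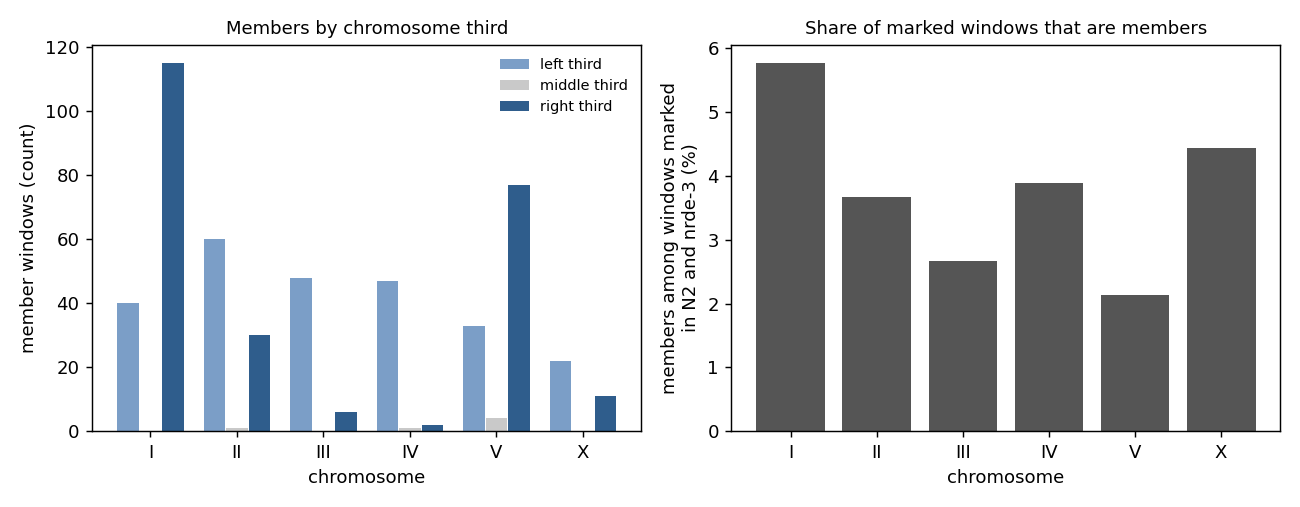
Left, number of member windows in the left, middle and right part of each chromosome. Right, members as a percentage of the windows marked in N2 and nrde-3 on that chromosome. The right part of I holds 115 members, and the share is highest on I at 5.77% and lowest on V at 2.14%.

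The 1 Mb with most members was I 14000001 to 15000000, with 55 members in 27 loci, 11.1% of its 495 marked windows. Their median was 2.83 in N2, 1.24 in met-2 nrde-3, 0.75 in lin-61, where 35 of the 55 were above input, but 0.72 in lin-61 met-2. The next was V 16000001 to 17000000 with 35 members, 6.12% of 572 marked windows, and then II 2000001 to 3000000 with 29, 4.12% of 704.

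By chromosome, the members on V stood highest in met-2 nrde-3 and lowest in lin-61, with medians of 1.65 and 0.79, and those on X highest in N2 and lin-61, with 3.65 and 1.23. In the other chromosomes the median was 1.24 to 1.33 in met-2 nrde-3 and 0.89 to 1.08 in lin-61. The share called above input in lin-61 was 96.0% on IV, 90.7% on III, 84.8% on X, 78.0% on II, 73.5% on I and 69.3% on V. The differences between chromosomes were not tested.

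The inputs at the members were near those elsewhere. Their median input level lay between -0.09 and 0.04 (log2 over the median window) in the 14 libraries used, against 0.04 to 0.07 for all even windows.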

How the data were processed

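The authors deposited raw read counts in windows along the genome for 30 libraries, of 500 bp except for 442 windows of another width. That they are raw follows from the values, whole numbers with unequal totals. The genome build is ce10 per the submitters' processing notes. The aligner, the counting tool and the handling of duplicates are not given in the sources used here, so how reads of repeats entered the counts is unknown, and counts of amplified fragments overstate independent molecules. The 60 records are 2 runs per library, combined in the table. The 28 mitochondrial windows and 16428 nuclear windows with uneven inputs were left out.

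The test used edgeR 4.0.16 (R 4.3.3), TMM factors of 0.577 to 1.14 and 1 group per genotype and library type on 28 libraries, without N2 replicate 1. The dispersion was 0.0151. DESeq2 1.42.0 and limma 3.58.1 were alternatives. On simulated counts for lin-61 over input in 184123 windows, 97 of 100 changes of 2-fold and all 100 of 4-fold were recovered, with 11 false calls. Apart from these changes the simulation gave all libraries 1 mean per window, scaled by depth, and the 1 dispersion of 0.0151. Its rates may therefore not hold for the real counts. Library pairs of 1 group differed by 1.57 to 108 times the sampling variance, so each was counted as its own library. Without N2 replicate 1 the highest value was 25.3, for nrde-3 H3K9me3 preparations 2 and 3. The growth text speaks of independent replicates but gives their number as 2 where the extraction text gives 3, so the spread between preparations may in part be technical.

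The members, the sets compared with them and the tests were chosen with earlier results of these data known. Named loci are the 12 with most member windows, the one with most on each chromosome, and those with the highest and lowest lin-61 level and the highest met-2 nrde-3 level among loci of at least 3 windows. No genome or annotation of ce10 was used, so no genes or sequences are given.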

Additional observations from a re-analysis of the deposited data

Results flagged for a closer look

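The library labelled N2 input 1, which entered neither the choice of members nor the test as reported, only the alternatives with libraries as labelled, carried a signal at the members. Its median level there was 2.42 (log2 over the mean of the 14 other inputs), and 496 of the 497 members were at 1 or more, while the medians of the other 14 inputs lay between -0.05 and 0.10. The library labelled N2 H3K9me3 1 had a median of 0.23 and no member at 1 or more, against 2.97 and 3.15 in N2 H3K9me3 2 and 3. The cause was not tested. No group had enough preparations to test for a single outlying one.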

How the results depend on the processing

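The number of members rested on scale and coverage. It was 497 as given, 115 with scaling by library total and 144 with the SD of the levels evened out across genotypes. It was 281 with N2 from all 3 replicates as labelled, and 6856 with no limit on input differences. The last adds windows with uneven inputs by construction. The 281 are all members, and averaging in N2 H3K9me3 1, with a median of 0.23 at the members, lowers their N2 level by construction. For the counts of 115 and 144 the cause was not tested. Leaving out 1 preparation gave 398 to 613 members and kept at least 80.1% of the 497. With the thresholds raised by 0.25 there were 498 windows, 266 of them shared, and with thresholds lowered by 0.25 458, 215 of them shared. The other alternatives stayed within 1.5 times. The count of members above input in lin-61 was 389 as given and 32 with all 30 libraries as labelled. It was 292 to 333 without 1 lin-61 preparation and stayed within 1.5 times under the other 9 alternatives, DESeq2 and limma included, with 405 and 399. With the replicate block it was 384. Same-numbered inputs and H3K9me3 libraries deviated together at r = -0.12 to 0.03 within genotypes. In lin-61 and lin-61 met-2 the r was -0.01 to 0.01, so no pairing was seen there. In nrde-3 and met-2 nrde-3 the input labels are contradicted, and N2 had 2 preparations, so for these the check cannot tell. The lin-61 median of 0.93 was 0.89 to 1.00 without 1 preparation and moved by less than its SD under the other 4 alternatives run for it, pseudocounts, scaling and lin-61 inputs. With the SD of the levels evened out across genotypes the median over members was 1.17, a larger move.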
